A study of Mus musculus with 12 samples.

Results

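Cxcl1, Cxcl2, Cxcl3 and Cxcl5 encode CXC chemokines that attract neutrophils, and Cxcr2 encodes the receptor these chemokines share. The 5 genes were followed in cultured macrophages, grown from bone marrow, that had (ERRα+/+) or lacked (ERRα-/-) the orphan nuclear receptor ERRα, the product of Esrra. The cells had received PBS or lipopolysaccharide (LPS). They were found on the array through the transcript accession of each probe, which gave 1 probe with 1 spot per gene, 5 of the 20887 genes named on the array. All 5 passed the filter on dim probes and are among the 13116 genes tested. They were chosen by family, with their LPS responses and genotype differences on these same arrays already known, so their values are given as a description, and no p-value of their own is printed.

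Each genotype was studied with PBS and with LPS, which makes 4 groups of 3 one-colour (Cy3) arrays. All groups used marrow of male mice of the C57BL6 background, 6 to 8 weeks old, cultured for 5 to 7 days with macrophage colony-stimulating factor (M-CSF). The PBS groups received the solvent, and LPS was given at 100 ng/mL; how long it was given is unstated in the labels. Neither the deleted part of Esrra nor whether replicates came from separate mice is stated in the labels, so every test measures the spread between these samples, which may be technical.

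These chemokines are small secreted proteins with a glutamate-leucine-arginine motif ahead of the CXC cysteines, the feature that lets them bind CXCR2 on neutrophils and draw those cells out of blood into inflamed tissue. Macrophages are a major source of them: LPS, sensed by TLR4, activates the transcription factor NF-kB, which switches the genes on, and AU-rich elements make their mRNAs short-lived. Cxcl1 encodes KC, Cxcl2 encodes MIP-2, Cxcl3 encodes the closely related DCIP-1, and Cxcl5 encodes LIX. Cxcr2 itself is characteristic of neutrophils.

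On RefSeq's assembly GRCm38.p6 the ligand genes lie side by side on chromosome 5, in the order Cxcl5, Ppbp, Pf4, Cxcl3, Cxcl15, Cxcl1 and Cxcl2, and Cxcr2 lies next to Cxcr1 on chromosome 1. RefSeq promoter sequences were matched for 4 of the 5 genes (Cxcl1, Cxcl2, Cxcl3 and Cxcr2, not Cxcl5). The 120 bases directly before the start of the 3 strongly LPS-responsive genes are shown because their promoters are the sequences through which LPS signalling is known to act. Capitals mark matches to the NF-kB consensus and the TATA box letters TATAAA. All 3 lie on the plus strand, at chr5:90891125-90891244 for Cxcl1, chr5:90903779-90903898 for Cxcl2 and chr5:90785981-90786100 for Cxcl3.
Cxcl1: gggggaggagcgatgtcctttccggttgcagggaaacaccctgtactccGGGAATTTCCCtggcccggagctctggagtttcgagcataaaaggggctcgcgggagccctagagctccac
Cxcl2: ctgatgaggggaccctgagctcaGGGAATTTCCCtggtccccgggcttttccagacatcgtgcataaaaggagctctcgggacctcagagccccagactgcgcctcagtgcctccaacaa
Cxcl3: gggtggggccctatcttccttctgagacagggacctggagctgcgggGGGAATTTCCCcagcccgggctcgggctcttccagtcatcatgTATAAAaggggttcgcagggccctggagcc

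The same 10 letters, GGGAATTTCC, stood in all 3 promoters, starting 71 bases before the start of Cxcl1, 97 before that of Cxcl2 and 73 before that of Cxcl3. A second match on the minus strand overlapped each of them, shifted by 1 base. Searched on both strands over the 250 bases before the start, the NF-kB consensus was held by 3.9% of all 32851 RefSeq promoters, and the exact letters GGGAATTTCC, picked after they were seen here, by 0.0852%. The TATA box letters were found only in Cxcl3, 30 bases before its start, and in 12.4% of all promoters. The C/EBP letters TTNCNNAA were found only in Cxcl2, 236 bases before its start, and in 36.8% of all promoters. The extended ERR response element TNAAGGTCA (1.14% of all promoters) and the AP-1 letters TGANTCA (6.75%) had no match in these 4 windows, and the Cxcr2 window had no match to any of the 5 motifs. These matches describe letters in a window and are not measured binding sites.

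Levels are log2 processed signals relative to the 75th percentile of all probes on the same array, so a level of 0 is a signal equal to that percentile. A probe was taken as measured where the scanner software flagged it as well above background. Per array, 45.4% to 56.7% of probes carried that flag, the 75th percentile ranged from 288.9 to 609.8, and saturation was flagged at 0 spots. Replicate 1 of each group was hybridised on 1 slide and replicates 2 and 3 on a second slide, which was scanned separately, so both slides hold all 4 groups. Replicate spots of a probe varied more on 2 of the ERRα+/+ PBS arrays, with a median coefficient of variation of 17.1% for replicate 2 and 11.9% for replicate 3, than on the other 10 arrays (5.74% to 8.33%). Esrra, the targeted gene, differed by -3.58 ± 0.51 between ERRα-/- and ERRα+/+ under PBS (log2 difference ± SE, n = 3 arrays per group; limma adjusted p = 0.02267) and by -2.11 ± 0.51 under LPS (adjusted p = 0.2022). Its levels were 2.48, 0.25 and 0.15 on the ERRα-/- PBS arrays and 4.54, 4.39 and 4.68 on those of ERRα+/+. Under LPS they were 4.40, 3.92 and 3.83 in ERRα-/- and 5.87, 6.25 and 6.36 in ERRα+/+. The genotypes did not overlap under either treatment, and the probe kept a signal in ERRα-/- cells.

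LPS raised all 4 ligand genes in both genotypes, and Cxcr2 was not called in either. Cxcl1, Cxcl2 and Cxcl3 were among the 10 largest LPS responses of the 13116 genes in both genotypes, each by over 8 log2 units, whereas Cxcl5 was higher by 1.03 in ERRα+/+ and 1.52 in ERRα-/-. The genotypes parted the family. Cxcl1 was lower in ERRα-/- under both treatments, and its difference under LPS was the lowest of all genes tested. Cxcl5 was lower in ERRα-/- by a smaller amount, called in the main fit, which has no blocks, only for the average of both treatments. Cxcl3 was lower on every ERRα-/- array under LPS but was not called in that fit, and Cxcl2 overlapped between the genotypes under LPS.

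**Figure D1:**
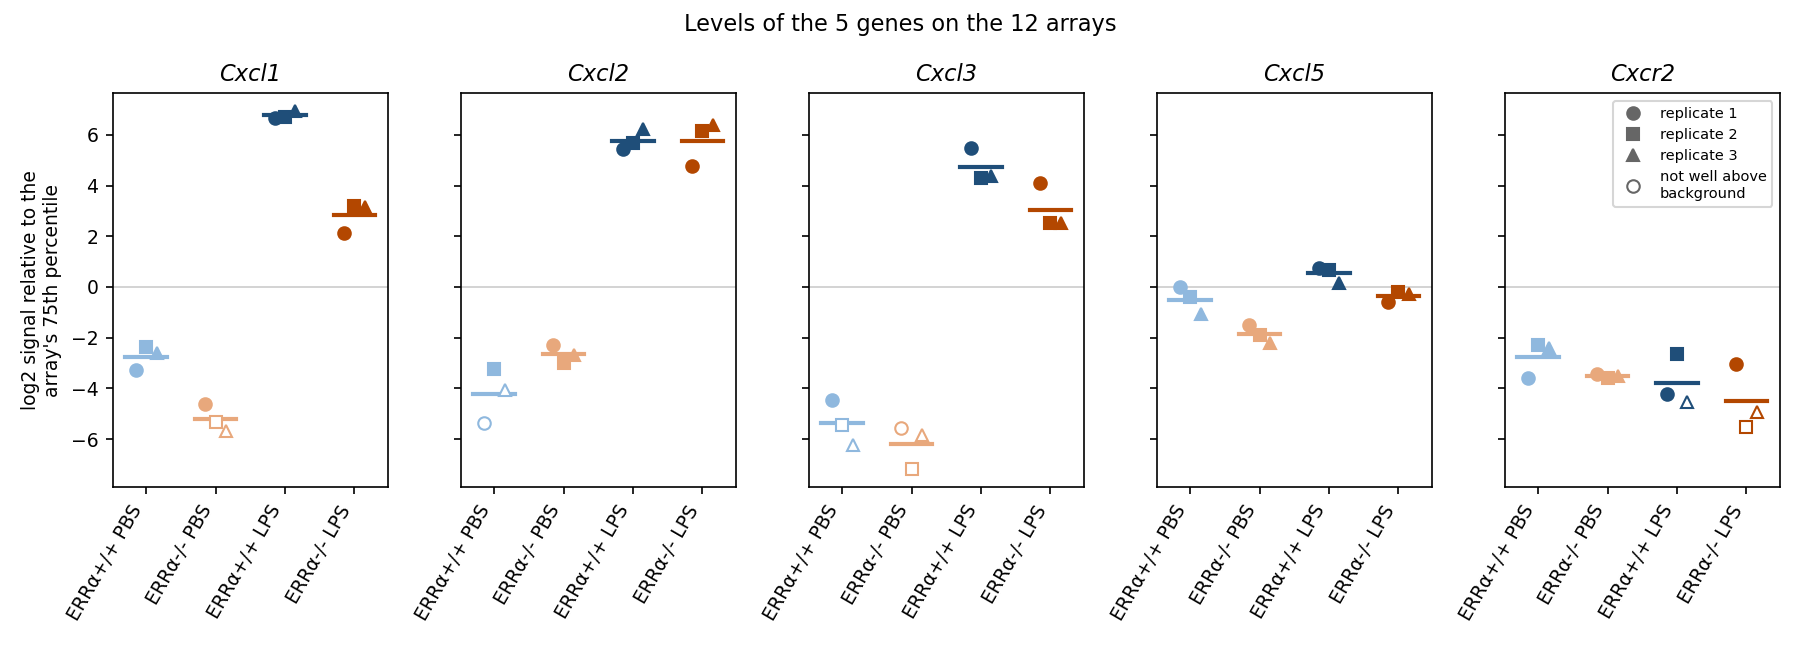
Log2 signal relative to the array's 75th percentile (vertical axis) of the 5 genes in the 4 groups, with 1 point per array, marker shapes for the replicates, open markers where the probe was not well above background, and bars for the group means. Cxcl1 under LPS lay between 6.68 and 6.93 in ERRα+/+ and between 2.13 and 3.19 in ERRα-/-, while the Cxcl2 points of both genotypes overlapped under LPS.

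Cxcl1, the chemokine KC, had the clearest pattern of the family. With PBS its level on ERRα+/+ replicates 1, 2 and 3 was -3.26, -2.38 and -2.59, and on ERRα-/- replicates -4.61, -5.31 and -5.69. Only 1 of the 3 ERRα-/- PBS arrays (replicate 1) was well above background. With LPS it reached 6.68, 6.72 and 6.93 in ERRα+/+, and 2.13, 3.19 and 3.17 in ERRα-/-. The 2 genotypes did not overlap under either treatment, and the LPS arrays of ERRα-/- lay far above all PBS arrays. In unscaled processed signal, the ERRα+/+ LPS arrays read 53954, 37997 and 38762, and the ERRα-/- LPS arrays 2190, 2634 and 2673.

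From these levels, LPS raised Cxcl1 by 9.52 ± 0.36 in ERRα+/+ and by 8.03 ± 0.36 in ERRα-/- (log2 difference ± SE of the limma fit, n = 3 arrays per group, as throughout). Under LPS it was lower in ERRα-/- by 15.4-fold, a log2 difference of -3.94 ± 0.36. Arrays of the same replicate number gave an ERRα-/- level that was 4.27%, 8.66% and 7.42% of the ERRα+/+ level. The difference was -4.55 within slide 1 and -3.64 within slide 2. The gene was called in all 23 alternatives that tested its probe, some of which could not change its value.

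Under PBS, Cxcl1 was lower in ERRα-/- by 5.498-fold (-2.46 ± 0.36), at signals of 57.5 to 67.4 in ERRα+/+ and 8.07 to 25.0 in ERRα-/-. Only 1 of 3 ERRα-/- PBS arrays was well above background. This difference, the ERRα-/- LPS response and the comparison of LPS responses thus rest partly on unmeasured signals. The genotype difference under PBS was -1.35 within slide 1 and -3.01 within slide 2. The call under PBS was lost without ERRα+/+ PBS replicate 2 (-2.28) or replicate 3 (-2.38), without both of them (-1.94), and without ERRα-/- PBS replicate 2 (-2.41) or 3 (-2.21). It was also lost with no filter on dim probes, and with normexp background correction, which shrank the difference to -0.98. The LPS response was smaller in ERRα-/- by 1.48 ± 0.50 on the log2 scale, which was not called; that difference was -3.20 within slide 1 and -0.63 within slide 2. Normexp correction, which adds an offset of 50 to every signal, gave -2.99, and the call was then made. That offset is of the size of the PBS signals above and compresses differences at that level. Nothing is read from this call.

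Cxcl2, the chemokine MIP-2, behaved differently from its neighbour Cxcl1. With PBS it read -5.38, -3.25 and -4.05 on the ERRα+/+ arrays, of which only replicate 2 was well above background, and -2.30, -3.02 and -2.67 on the ERRα-/- arrays, all above background. Its LPS levels were 5.42, 5.67 and 6.22 for ERRα+/+ and 4.79, 6.17 and 6.37 for ERRα-/-. The LPS arrays of the genotypes overlapped, and the ERRα-/- PBS arrays all lay above those of ERRα+/+.

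LPS raised Cxcl2 by 10.00 ± 0.54 in ERRα+/+ and by 8.44 ± 0.54 in ERRα-/-. The genotype difference under LPS was 0.0052 ± 0.54, and its sign turned with the scaling: it was -0.11 after quantile normalization and -0.024 after median scaling. Under PBS it was 1.57 ± 0.54 higher in ERRα-/-, not called, with 3.08 within slide 1 and 0.81 within slide 2. With array weights (1.11) it was called. In ERRα+/+ only 1 of 3 PBS arrays measured the gene.

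Cxcl3, the chemokine DCIP-1, was near background without LPS. The ERRα+/+ PBS arrays read -4.44, -5.44 and -6.25, with only replicate 1 well above background, and the ERRα-/- PBS arrays read -5.56, -7.20 and -5.84, all below it. With LPS the ERRα+/+ arrays read 5.501, 4.28 and 4.36, and the ERRα-/- arrays 4.08, 2.52 and 2.54. Under LPS every ERRα-/- array lay below every ERRα+/+ array, with replicate 1 the highest of its group in both genotypes.

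LPS raised Cxcl3 by 10.09 ± 0.61 in ERRα+/+. In ERRα-/- the response is a lower bound, since no PBS array there measured the gene: it was at least 269-fold, set against the lowest level of a probe well above background on each PBS array (measured means 3.05 under LPS and -6.20 under PBS). Under LPS, Cxcl3 was lower in ERRα-/- by 1.67 ± 0.61, which was not called. By replicate number, the ERRα-/- level was 37.4%, 29.5% and 28.3% of that in ERRα+/+. With slide as a block, within slide 2 alone (-1.79) and with array weights (-1.77) the difference was called. Averaged over PBS and LPS, with the ERRα-/- PBS arrays below background, it was -1.25 ± 0.43, not called in the fit without blocks. That average was called with slide as a block, with the replicate block, within slide 2 (-1.23) and with array weights (-1.10).

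Cxcl5, which encodes LIX, was well above background on all 12 arrays and had the smallest LPS response among the ligands. The PBS levels were -0.0045, -0.41 and -1.07 for ERRα+/+ and -1.503, -1.88 and -2.22 for ERRα-/-. The LPS levels were 0.77, 0.67 and 0.17 for ERRα+/+ and -0.58, -0.19 and -0.26 for ERRα-/-. The genotypes did not overlap under either treatment, and within each genotype all LPS arrays lay above all PBS arrays.

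Cxcl5 rose with LPS by 1.03 ± 0.29 in ERRα+/+ and by 1.52 ± 0.29 in ERRα-/-. The ERRα+/+ call was lost without ERRα+/+ LPS replicate 2 (0.96), without ERRα+/+ PBS replicate 3 (0.74) and without ERRα+/+ PBS replicates 2 and 3 together (0.54). The genotype difference was -1.37 ± 0.29 under PBS, not called in the fit without blocks. It was called with slide as a block, with the replicate block, within slide 2 (-1.31) and with array weights (-1.23). Under LPS it was -0.88 ± 0.29, not called, and -0.79 with array weights, called. Averaged over both treatments the difference was -1.13 ± 0.20, called. That call was lost without ERRα+/+ LPS replicate 1 (-1.07) or 2 (-1.09), ERRα+/+ PBS replicate 2 (-1.11), ERRα-/- PBS replicate 2 (-1.12) or 3 (-1.04), or ERRα-/- LPS replicate 2 (-1.17) or 3 (-1.15). Median scaling (-1.14) and testing all probes without the filter also ended it.

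Cxcr2, the receptor, was dim, and both of its genotype differences, as well as its LPS difference in ERRα-/-, changed sign between slides. Its PBS levels were -3.57, -2.29 and -2.42 for ERRα+/+ and -3.43, -3.60 and -3.51 for ERRα-/-. With LPS they were -4.22, -2.64 and -4.55 for ERRα+/+ and -3.04, -5.54 and -4.92 for ERRα-/-. The third ERRα+/+ LPS array and ERRα-/- LPS replicates 2 and 3 were not well above background. The groups overlapped in each of the 4 contrasts between a pair of groups.

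The difference of Cxcr2 between LPS and PBS was -1.04 ± 0.65 in ERRα+/+ and -0.99 ± 0.65 in ERRα-/-, neither called. In ERRα-/- the slides disagreed, with 0.38 within slide 1 and -1.67 within slide 2, where it was called. It was also called with array weights (-1.76) and without ERRα-/- LPS replicate 1 (-1.72). The genotype difference was -0.75 ± 0.65 under PBS and -0.70 ± 0.65 under LPS, not called. Averaged over treatments it was -0.72 ± 0.46, with 0.66 within slide 1 and -1.42 within slide 2. With array weights the genotype differences under LPS (-2.25) and averaged (-1.67) were called.

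**Figure D2:**
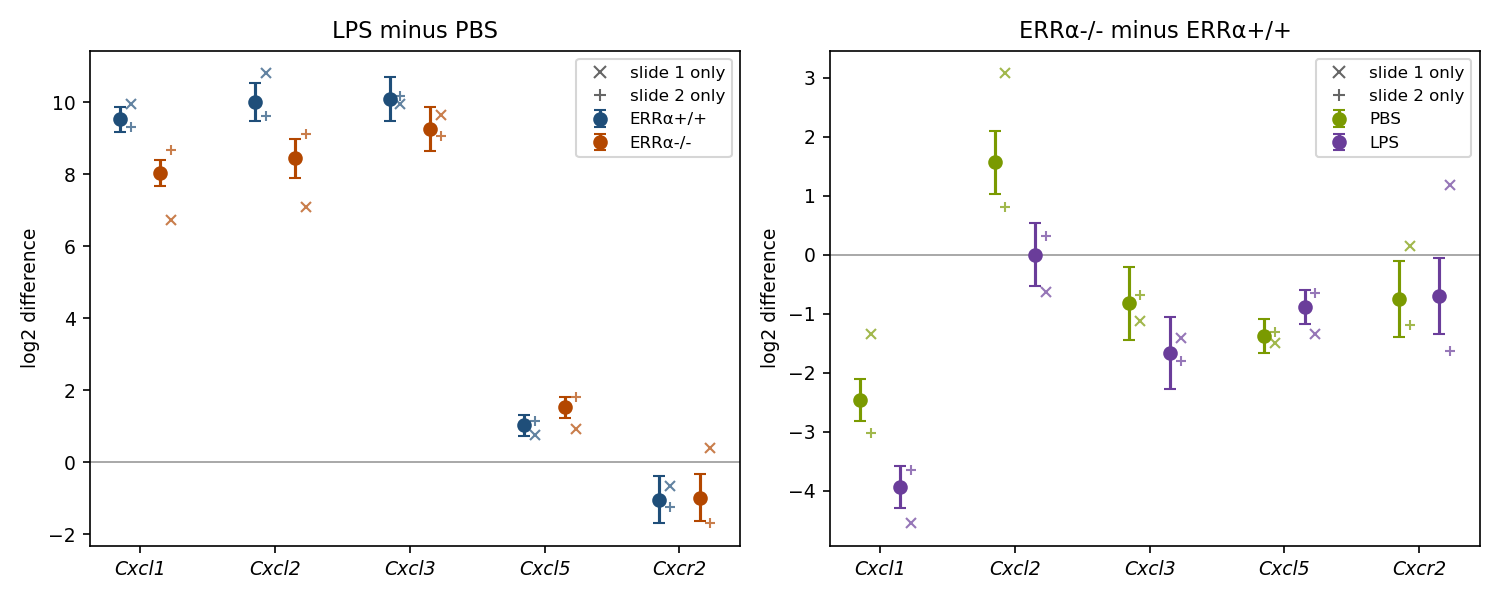
Log2 differences (vertical axes) of the 5 genes for LPS minus PBS in each genotype and for ERRα-/- minus ERRα+/+ under each treatment; points and bars are the fitted difference ± SE (n = 3 arrays per group), crosses the value within slide 1 and plus signs that within slide 2. Cxcl1 was lower in ERRα-/- on both slides under both treatments, whereas the slide 1 and slide 2 values of Cxcr2 lay on opposite sides of 0 for both genotype differences. No ERRα-/- PBS array measured Cxcl3, so its LPS response in ERRα-/- and its difference under PBS are drawn from unmeasured signals.

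Set against all genes, 4 of the 5 genes were called for the LPS response in ERRα+/+, all higher, where 45.9% of all genes were called and 22.2% were called higher. In ERRα-/- the count was again 4 of 5, where 50.4% of all genes were called and 25.1% were called higher. Under PBS 1 of 5 was called lower between genotypes, Cxcl1, with 0.427% of all genes called (0.358% lower). Under LPS 1 of 5 was called lower, again Cxcl1, with 0.13% of all genes called (0.0534% lower). Averaged over both treatments 2 of 5 were called lower, Cxcl1 and Cxcl5, with 1.36% of all genes called (0.961% lower). The LPS and PBS groups of the 4 ligands did not overlap and were higher with LPS, where this held for 26.6% of all genes in ERRα+/+ and 29.9% in ERRα-/-. The genotype groups of 2 genes, Cxcl1 and Cxcl5, did not overlap and were lower in ERRα-/- under PBS, where this held for 8.36% of all genes. Cxcl2 did not overlap and was higher, where this held for 5.81%. Under LPS, Cxcl1, Cxcl3 and Cxcl5 did not overlap and were lower, where this held for 7.49%. No gene of the array was called for a difference of the LPS response between genotypes (0% of 13116), while 294 genes, of which Cxcl1 was the only one of the 5, had an unadjusted p under 0.05 in limma. Cxcl3 passed the filter on dim probes only through the LPS groups, where it is high, so the filter favoured its LPS calls and non-overlap. Since the genes were chosen with these contrasts known, nothing is read from the shares.

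The median difference over the 5 genes was 9.52 for LPS in ERRα+/+, against 0.02 over all genes, and 8.03 in ERRα-/-, against 0.05. Between genotypes under LPS it was -0.88, against -0.0067 over all genes. Under PBS the middle value was that of Cxcl3, which no ERRα-/- PBS array measured, so no median is given. Ranked from the lowest genotype difference under LPS, Cxcl1 stood at 1, Cxcl3 at 22, Cxcl5 at 317, Cxcr2 at 543 and Cxcl2 at 6809 of 13116. Under PBS the ranks were 10 for Cxcl1, 107 for Cxcl5, 529 for Cxcr2 and 13053 for Cxcl2, and Cxcl3 is left out as unmeasured in ERRα-/-.

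**Figure D3:**
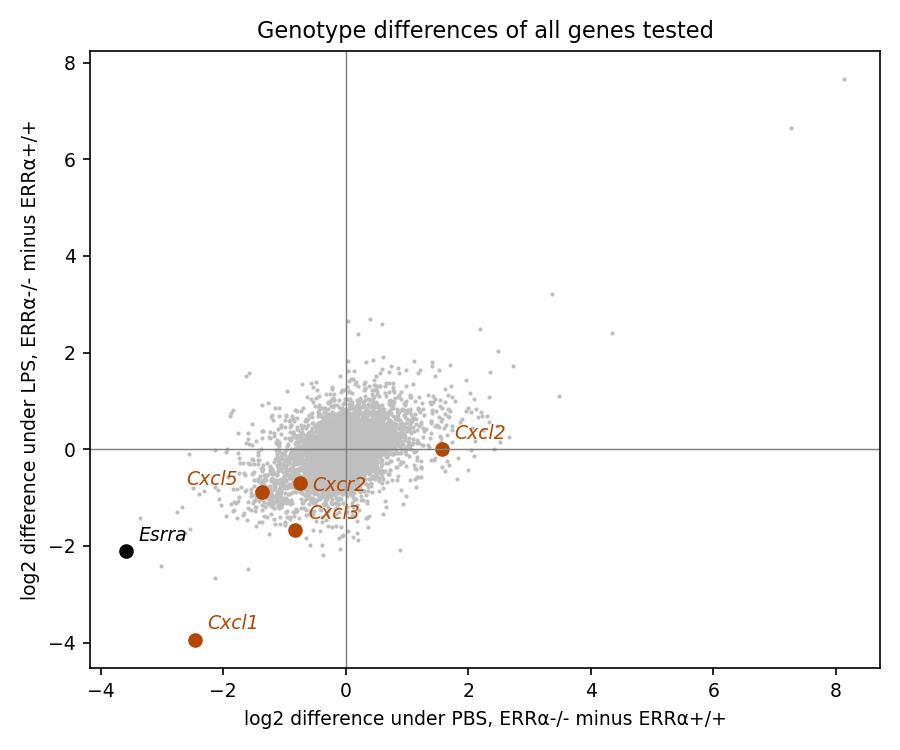
Log2 difference between ERRα-/- and ERRα+/+ under PBS (horizontal axis) and under LPS (vertical axis) for the 13116 genes tested, 1 grey dot per gene, with the 5 genes in orange and Esrra in black. Cxcl1 lay at -2.46 and -3.94, below every other gene on the vertical axis, and Cxcl2 lay at 1.57 and 0.0052. The horizontal position of Cxcl3 rests on unmeasured ERRα-/- PBS signals.

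Some markers of other cell types moved with the same genotype contrast. Of 7 megakaryocyte or platelet markers, 4 were lower in ERRα-/- under PBS and 5 averaged over treatments, where 0.427% and 1.36% of all genes were called. Under LPS 0 of 7 were called (limma; all 7 had an unadjusted p under 0.05), where 0.13% of all genes were called. Among them were Gp1ba, a platelet von Willebrand factor receptor subunit (-1.26 ± 0.14 averaged, adjusted p = 0.003508, limma with Benjamini-Hochberg adjustment), and Treml1 (-1.20 ± 0.15, adjusted p = 0.003583). All 7 were well above background on every array, and their summed linear signal, relative to the 75th percentile, was 40.7 to 64.1 on ERRα+/+ PBS arrays, 23.1 to 34.6 on ERRα-/- PBS arrays, 51.8 to 62.1 on ERRα+/+ LPS arrays and 25.1 to 31.9 on ERRα-/- LPS arrays. Their part in the lower Cxcl1 and Cxcl5 was not tested. The other lowered markers in the averaged contrast were Gp9 (-1.13 ± 0.15), Gp6 (-1.04 ± 0.14) and Itgb3 (-1.02 ± 0.17), and those called under PBS were Gp1ba, Gp9, Gp6 and Treml1. Over all 13116 genes, 862 had an unadjusted p under 0.05 between genotypes under PBS and 818 under LPS (limma). Those counts are the background for the unadjusted counts given here and for the lists below.

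Macrophage markers were present. All 15 on the array were well above background on every array, Csf1r (the M-CSF receptor), Adgre1 (an adhesion receptor that marks mouse macrophages) and Lyz2 (lysozyme) among them, and 0 of 15 were called between genotypes under either treatment (limma; 1 had an unadjusted p under 0.05 under PBS and 0 under LPS). Their sum was 1334 to 2134 on ERRα+/+ PBS arrays and 1780 to 2290 on ERRα-/- PBS arrays, and 2054 to 2494 and 2249 to 2761 on the LPS arrays. Their median genotype difference was 0.22 under PBS and 0.17 under LPS. In bulk samples, fewer cells of a type and less RNA per cell cannot be told apart.

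Neutrophil markers, which bear on Cxcr2, were also detected: between 12 and 15 of 15 were well above background per array, and none was below it on every array of the study. Their sum overlapped between genotypes, at 459 to 612 and 392 to 500 with PBS and at 450 to 908 and 719 to 814 with LPS. Of the 15, 0 were called between genotypes (limma; 4 had an unadjusted p under 0.05 under PBS and 0 under LPS). Their median genotype difference was -0.69 under PBS and -0.21 under LPS, against -0.02 and -0.0067 over all genes. With LPS in ERRα+/+, Lcn2, which encodes a siderophore-binding protein that macrophages also make, rose by 2.63 ± 0.50 (adjusted p = 0.001923) and Mpo, the granule myeloperoxidase, fell by 2.61 ± 0.56 (adjusted p = 0.003618, both limma). Of the stromal or endothelial markers, 9 of 12 were tested and 0 were called between genotypes (limma; 5 had an unadjusted p under 0.05 under PBS and 0 under LPS). Their sum did not overlap under PBS, at 21.2 to 23.8 in ERRα+/+ and 17.0 to 18.9 in ERRα-/-, and overlapped under LPS, at 26.9 to 39.4 and 22.8 to 35.4. The median genotype difference of the 9 stromal or endothelial markers tested was -1.02 under PBS and -0.20 under LPS. With 0.427% and 0.13% of all genes called, the counts of 0 for the macrophage, neutrophil and stromal markers are near the background. The part of neutrophil and stromal RNA in the 5 genes' differences was not tested.

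The other CXC chemokines and receptors tested moved in both directions with LPS, and those called between genotypes were lower in ERRα-/-. Of 20 listed, 19 were on the array and 12 were tested. With LPS in ERRα+/+ 4 rose, 3 fell and 5 were not called, and in ERRα-/- 7 rose, 2 fell and 3 were not called. Of all genes, 45.9% were called for LPS in ERRα+/+ and 50.4% in ERRα-/-. The median difference was 0.44 and 0.67, against 0.02 and 0.05 over all genes. Cxcl9 and Cxcl10, interferon-induced chemokines that attract T cells through CXCR3, rose by 9.16 ± 0.77 (adjusted p = 1.316e-05; above background on 1 of 3 ERRα+/+ PBS arrays) and 8.55 ± 0.85 (adjusted p = 3.779e-05) in ERRα+/+. Cxcr4, the CXCL12 receptor, fell by 4.17 ± 0.34 (adjusted p = 1.166e-05, all limma).

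Between genotypes 3 of these 12 genes were lower in ERRα-/- under PBS, where 0.427% of all genes were called, and none was called higher. Under LPS 0 were called (limma; 4 had an unadjusted p under 0.05), where 0.13% of all genes were called. Ppbp, which encodes the platelet chemokine CXCL7, also a CXCR2 ligand, lies between Cxcl5 and Pf4. Its genotype difference was -1.0997 ± 0.17 under PBS (adjusted p = 0.0274) and -1.02 ± 0.17 under LPS (adjusted p = 0.0558). Cxcl12, the stromal chemokine that retains leukocytes in marrow, differed by -1.501 ± 0.26 under PBS (adjusted p = 0.04307). Cxcl14 differed by -3.35 ± 0.53 under PBS (adjusted p = 0.02836), with 1 of 3 ERRα-/- PBS arrays and 0 of 3 ERRα-/- LPS arrays above background. Cxcl14 passed the filter only through the ERRα+/+ PBS group, where it is highest. Its calls, under PBS and averaged, therefore rest partly on unmeasured signals, and nothing is read from them. Averaged over treatments the same 3 genes were called, with adjusted p = 0.003508 for Ppbp, 0.01995 for Cxcl12 and 0.01183 for Cxcl14 (limma). Pf4, the platelet chemokine CXCL4, was -0.56 ± 0.14 in that contrast (adjusted p = 0.1145) and Cxcr1, the other receptor for CXC chemokines of this kind, was -1.23 ± 0.28 (adjusted p = 0.07461). Platelet markers were lower in the same arrays, as given above, and their part in the Ppbp difference was not tested. Cxcl9 and Cxcl10 had values in the other direction, not called. The Cxcl9 difference was 3.48 ± 0.77 under PBS (adjusted p = 0.1236), with 1 of 3 ERRα+/+ PBS arrays above background, and 1.097 ± 0.77 under LPS (adjusted p = 0.9719). That of Cxcl10 was 2.24 ± 0.85 under PBS (adjusted p = 0.5446) and 0.41 ± 0.85 under LPS (adjusted p = 0.9949, all limma). The median genotype difference of the list was -0.32 under PBS and -0.17 under LPS.

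**Figure D4:**
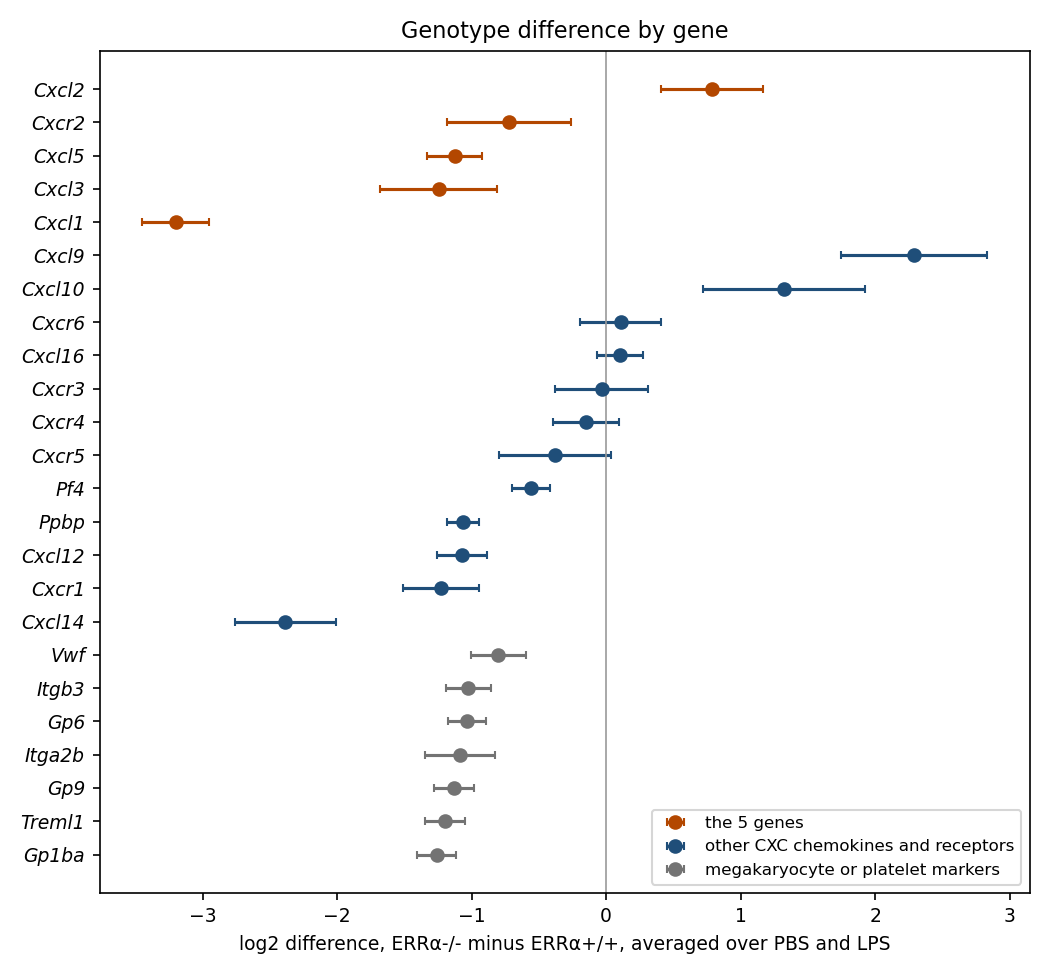
Log2 difference between ERRα-/- and ERRα+/+ averaged over PBS and LPS (horizontal axis; point ± SE, 6 arrays per genotype) for the 5 genes, the 12 other CXC chemokines and receptors tested and 7 megakaryocyte or platelet markers. Cxcl1 lies lowest at -3.20, and the platelet markers and Ppbp (-1.06) lie near Cxcl5 (-1.13) and Cxcl3 (-1.25). No ERRα-/- PBS array measured Cxcl3, so its point rests partly on unmeasured signals.

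The genes that carry the LPS signal to chemokine promoters mostly responded to LPS in both genotypes. Of 30 genes for the LPS receptor, its adaptors, NF-kB and C/EBP factors, 22 rose, 1 fell and 7 were not called in ERRα+/+, and 23 rose, 3 fell and 4 were not called in ERRα-/-. The median was 1.75 in ERRα+/+ and 1.58 in ERRα-/-. Of all genes, 45.9% and 50.4% were called for LPS in the same order. The inhibitor genes Tnfaip3 (A20) and Nfkbia (IκBα) rose in ERRα+/+ by 4.31 ± 0.61 (adjusted p = 0.0003321) and 3.98 ± 0.40 (adjusted p = 4.164e-05). The NF-kB subunit gene Rel rose by 4.17 ± 0.55 (adjusted p = 0.0002224, all limma), from a PBS group with 1 of 3 arrays above background. Between genotypes 0 of 30 were called under PBS or LPS (limma; 7 and 2 had an unadjusted p under 0.05). With 0.427% and 0.13% of all genes called, a count of 0 is near the background for this list and for the 3 lists that follow, and nothing is read from it. The median was 0.15 under PBS and 0.08 under LPS.

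Factors that shorten or stabilise chemokine mRNAs moved in both directions with LPS. Among 15 such genes in ERRα+/+, LPS raised 5 and lowered 3, with 7 not called, and in ERRα-/- 7 rose, 2 fell and 6 were not called. The medians were 0.63 and 0.66. With 45.9% and 50.4% of all genes called for LPS, these counts are near the background. Zfp36l1 and Zfp36l2, which encode proteins that bind AU-rich elements, had LPS differences of -3.70 ± 0.42 (adjusted p = 7.968e-05) and -3.35 ± 0.68 (adjusted p = 0.002666) in ERRα+/+. Zc3h12a, which encodes the RNase Regnase-1, rose by 3.18 ± 0.45 (adjusted p = 0.0003152, all limma). Between genotypes 0 of 15 were called under PBS or LPS (limma; 1 and 0 had an unadjusted p under 0.05), with medians of 0.05 and 0.13.

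Downstream of the receptor, 24 genes that link CXCR2 to migration were tested. With LPS in ERRα+/+ 8 rose, 4 fell and 12 were not called, and in ERRα-/- 9 rose, 5 fell and 10 were not called, with medians of 0.30 and 0.27. These counts are near the background, since 45.9% and 50.4% of all genes were called for LPS. Rgs2, which ends G-protein signals, fell by 3.81 ± 0.50 (adjusted p = 0.0002074) and Arrb1, an arrestin, fell by 2.68 ± 0.81 (adjusted p = 0.02022), while Vasp, an actin regulator, rose by 2.72 ± 0.35 (adjusted p = 0.0001682, all limma). Between genotypes 0 of 24 were called under PBS or LPS (limma; 0 and 1 had an unadjusted p under 0.05), with medians of 0.07 in both.

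Other genes for signals that recruit or raise neutrophils mostly rose with LPS. Of 23 listed, 22 were tested. In ERRα+/+ 15 rose, 4 fell and 3 were not called, and in ERRα-/- 17 rose, 3 fell and 2 were not called, with medians of 4.63 and 3.32. The shares of all genes called for LPS were 45.9% and 50.4%. Il6 was not well above background on any PBS array, and its response was at least 3333-fold in ERRα+/+ and at least 4272-fold in ERRα-/- (measured means 6.83 and 7.04 under LPS and -6.05 and -6.10 under PBS). Ptgs2, the prostaglandin synthase COX-2, rose by 11.497 ± 0.84 in ERRα+/+, where 1 of 3 PBS arrays measured it. Il6 and Ptgs2 passed the filter only through the LPS groups, where they are high, so no p-value is given for their LPS responses. Il1b rose by 8.87 ± 0.96 in ERRα+/+ (adjusted p = 6.127e-05, limma). Under LPS the genotype difference was 0.20 ± 1.05 for Il6, 0.39 ± 0.84 for Ptgs2 and 0.29 ± 0.96 for Il1b, beside -3.94 ± 0.36 for Cxcl1. Csf2, which encodes the growth factor GM-CSF, was -1.68 ± 0.47 (adjusted p = 0.3045, limma), with 2 of 3 ERRα-/- LPS arrays above background, and is named here after its value was seen. Csf2 passed the filter only through the ERRα+/+ LPS group, where it is highest, so nothing is read from its difference. In this list 0 of 22 were called between genotypes under PBS or LPS (limma; 6 and 1 had an unadjusted p under 0.05), with medians of -0.07 and 0.18.

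Over the 12 arrays, which share the LPS treatment and the genotypes, the log2 levels of Cxcl1, Cxcl2 and Cxcl3 had Pearson correlations of 0.906 to 0.957 with each other, and Cxcl5 correlated with Cxcl1 at 0.856. Cxcr2 correlated with the 4 ligands at -0.568 to -0.202. The genes of the whole table whose levels were most like Cxcl1 were Slc16a3 (a monocarboxylate transporter, 0.983), Prdm1 (0.983), Ikbkg (0.980), Zc3hc1 (0.978) and Heatr1 (0.978). Their genotype differences under LPS were -0.62, -0.41, -0.48, -0.10 and -0.26, all smaller than that of Cxcl1. Most like Cxcl2 were Nod2 (an intracellular peptidoglycan sensor, 0.996), St7 (0.996) and Cd69 (0.996), and most like Cxcl3 were Syk (0.992), Maff (0.992) and Ctu2 (0.991). Cxcl5 was most like Gpc1 (0.949), Col4a2 (0.940) and F2r (0.928), whose averaged genotype differences were -0.99, -1.002 and -1.04 beside -1.13 for Cxcl5. Cxcr2 was most like Alox5 (0.907), Lmbr1 (0.875) and Mmp8, a neutrophil collagenase (0.856). These correlations are descriptions over 12 arrays and carry no test.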

How the data were processed

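The processed signal intensity was, per the file headers, background-subtracted and detrended within each array by Agilent Feature Extraction 11.5.1.1 (9.3.2.1 per the submitters' processing notes), with no scaling between arrays. The median spot and background intensity values were deposited raw. The other columns are flags of 0 or 1, per the file headers. The labels name a smaller array format for some samples, although the deposited files share 1 design.

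Control spots were dropped and each array was set to log2 minus its 75th percentile. Accessions gave gene names through RefSeq (GRCm38.p6). Genes were kept where 1 probe was flagged well above background by every array in at least 1 group, and the probe with the highest mean stood for the gene. Limma 3.58.1 (R 4.3.3) was fitted on all 12 arrays with 1 mean per group; p-values were Benjamini-Hochberg adjusted over 13116 genes and called below 0.05. A lower bound on a fold used, per array, the higher of the dim probe's signal and the lowest signal well above background. The number of arrays limits the precision. The fit was checked on simulated data with independent arrays and LPS changes only. Those data held no slide, replicate or genotype effect, so the check does not cover these. Replicate 1 carries no number in its title and was numbered by accession order. Same-numbered arrays deviated together (18 of 18 pairs over 0.1, r 0.144 to 0.784). Arrays numbered 2 and 3, which share a slide, did so across numbers as well (r 0.129 to 0.556). Values over 0.1 therefore do not separate pairing from a shared slide. Among arrays of other groups, 11 of the 12 arrays correlated most with one of their own number. Arrays numbered 1 share a slide with no other number, so only those numbered 2 and 3 bear on pairing within a slide. Whether the arrays are paired was not tested. A replicate block was an alternative, along with other scaling, background, filter, probe, slide and array-weight choices and each array left out.

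The genes and the lists were chosen with earlier results of these data known. Named were the 5 genes; the 3 largest called LPS responses in ERRα+/+ of each pathway list, and its genes called between genotypes; for markers, those with the highest mean or largest called differences (some are given only in counts, and 1 marker is not reported here); and the genes most correlated with each of the 5. The authors' deposited value table equalled the processed signal at all 62976 spots within rounding.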

Additional observations from a re-analysis of the deposited data

How the results depend on the processing

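The largest results kept their direction and call. Over 23 alternatives that tested its probe, the Cxcl1 genotype difference under LPS ran from -4.12 to -3.59 and was called in all 23, as were the LPS responses of Cxcl1, Cxcl2 and Cxcl3 in both genotypes. Not all of the 23 could move these values. The authors' value table equalled the processed signal, and a mean over probes leaves a gene with 1 probe unchanged. Dropping the filter and adding the slide or replicate block leave the estimates unchanged and can move only their SE and adjusted p. Leaving out PBS arrays likewise cannot move the estimate of the genotype difference under LPS. The planned normexp correction on mean signals was not run, since the files used here hold median signals; normexp on those, and leaving out ERRα+/+ PBS replicates 2 and 3 together, were chosen after seeing the data. Within slide 1 each group has 1 array, so values there have no test. Quantile normalization took the all-gene median of the LPS response to -0.14 in ERRα+/+ (0.02 in the main setting) and to -0.15 in ERRα-/- (0.05); with no filter it was 0.18 and 0.28. The share of called genes that were higher in ERRα-/- under PBS was 16.1%, 37.5% with median scaling, 31.6% with normexp, 31.4% with slide as a block, 48.7% within slide 2, 47.3% with array weights, 58.1% without ERRα+/+ PBS replicates 2 and 3, and 10.3% to 41.3% leaving out 1 array at a time, so the lean to lower calls did not hold throughout. The causes of the changes below were not tested, except that requiring signal on all 12 arrays keeps only Cxcl5 of the 5 genes.

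Reversed values were those of Cxcr2 and Cxcl2, and 1 of Cxcl3. For Cxcr2, the LPS response in ERRα-/- was 0.15 with normexp and 0.38 within slide 1. Its genotype difference under PBS was 0.14 within slide 1 and 0.057 without ERRα+/+ PBS replicates 2 and 3. Within slide 1 it was 1.18 under LPS and 0.66 averaged. The difference between its LPS responses was -0.44 within slide 2, -1.15 with array weights, -0.76 without ERRα+/+ PBS replicates 2 and 3, and -0.67 to 0.64 leaving out 1 array at a time. For Cxcl2, the genotype difference under LPS was -0.11 with quantile normalization, -0.024 with median scaling, -0.028 with normexp, -0.63 within slide 1 and -0.29 to 0.50 leaving out 1 array at a time. For Cxcl3, the difference between LPS responses was 0.092 without ERRα+/+ PBS replicates 2 and 3.

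Of the 5 genes, the number called for LPS was 1 in either genotype when signal on all 12 arrays was required, and 5 in ERRα-/- within slide 2 or with array weights. Under PBS between genotypes it was 0 with normexp, no filter, all 12 arrays or without ERRα+/+ PBS replicates 2 and 3; it was 2 with slide as a block, within slide 2 or with the replicate block, and 3 with array weights. Under LPS it was 0 with all 12 arrays, 2 with slide as a block or within slide 2, and 4 with array weights. Averaged it was 1 with median scaling, no filter or all 12 arrays, and 5 with array weights. For the difference of the LPS response it was 1 with normexp.

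Of all genes, those called for LPS in ERRα+/+ (6020 in the main setting) were 9482 within slide 2, 9629 with array weights and 2893 without ERRα+/+ PBS replicates 2 and 3; in ERRα-/- (6615) they were 10773 with array weights. Between genotypes under PBS (56) they were 16 with median scaling, 5 with no filter, 277 with slide as a block, 1253 within slide 2, 1540 with array weights and 31 without the pair of arrays. Under LPS (17) they were 9, 6, 212, 2222 and 4015 under the first 5 of these. Averaged (178) they were 113 with normexp, 92 with no filter, 650 with slide as a block, 2676 within slide 2, 3688 with array weights and 115 without the pair. For the difference of the LPS response (0; limma, 294 at an unadjusted p under 0.05) they were 1 with normexp, 551 within slide 2, 1229 with array weights and 8 without the pair.

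Leaving out 1 array at a time, the number of the 5 genes called ran from 3 to 4 for LPS in ERRα+/+, 4 to 5 in ERRα-/-, 0 to 1 under PBS, 1 to 1 under LPS, 1 to 2 averaged and 0 to 0 for the difference of the LPS response. All genes called ran from 4543 to 6684, 5136 to 7230, 3 to 81, 3 to 45, 84 to 260 and 0 to 0 in the same order. With the replicate block, which pairs same-numbered arrays, 193 genes were called under PBS, 132 under LPS and 499 averaged. Among the 5 genes this block added the calls of Cxcl5 under PBS and Cxcl3 averaged, and changed no other call.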
